A study of Mus musculus with 15 samples.

Results

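Gene expression was compared between the unoperated femora of mice flown to the International Space Station (FLT-Sham) and those of mice kept on Earth (G-Sham). The comparison rests on 8 of the 15 arrays of the study, 4 from FLT-Sham and 4 from G-Sham, 1 array per mouse, chosen by their labels alone. The other 7 arrays came from mice with a surgical gap in the femur, 4 on the ground (G-Surgery) and 3 in flight (FLT-Surgery). All 8 mice were C57BL/6J males with a labelled age of 9 weeks without a transgene and without a femoral defect, and the study calls them sham or unoperated controls. The study gives that as the approximate age at the time of surgery, and the tissue was taken weeks later, after the flight. Ground mice were kept in identical hardware, some days out of step with the flight mice. Each RNA was labelled with Cy5 and hybridised to a 2-colour Agilent mouse array beside a commercial reference, a pool of RNA from mouse cell lines labelled with Cy3, and the dyes were not swapped. The question was which genes spaceflight alone moved in a bone that had no injury to repair.

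The labels call the tissue callus, although no defect was made in these femora. The RNA came from the femoral midshaft after both ends had been removed, from carcasses that were frozen after death and partly thawed for dissection, and the study describes it as of low quality. Such a piece holds cortical bone, marrow, vessels and any muscle left on the surface. In the bulk RNA fewer cells of a type and less RNA per cell cannot be told apart.

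The defining markers were uneven. Of the bone markers, Col1a1, the main collagen of bone matrix, had a Cy5 signal well above background on all 8 arrays, and Bglap (osteocalcin) on 2 G-Sham and 3 FLT-Sham arrays. The osteocyte genes Dmp1 and Sost were above background on 0 arrays. The muscle genes Acta1, Ckm, Myh4 and Myh7, the osteoclast enzyme Acp5, the neutrophil gene Ngp, the macrophage gene Cd68 and the T cell gene Cd3e were above background on all 8 arrays. The RNA therefore held skeletal muscle and marrow beside bone.

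Weight-bearing bone is built by osteoblasts, resorbed by osteoclasts and sensed by osteocytes, and it loses mass when load is removed. BMP and Wnt ligands drive osteoblast formation, and inhibitors such as Smad6 and Wif1 restrain them. Marrow also holds fat cells, which store triglyceride in droplets coated by perilipins and CIDE proteins, and unloading is known for a shift of marrow towards fat.

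Values are log2 ratios of femoral over reference RNA, and values of the 4 arrays of a group are given in the order replicates 1, 3, 4 and 5 for G-Sham and 4, 6, 8 and 9 for FLT-Sham. A difference is the mean of FLT-Sham minus the mean of G-Sham, with its standard error (SE) from limma. Probes were tested where Cy5 was well above background on at least 3 of the 8 arrays. The cut-off was a fold change of at least 2 with an unadjusted p of at most 0.01, and p-values adjusted by Benjamini-Hochberg are given beside it.

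Several arrays stood apart before any gene was tested. Cy5 was well above background for 12869, 17339, 18300 and 13257 of 55681 probes in G-Sham and for 20864, 21461, 14813 and 19424 in FLT-Sham. The mean was 3699.25 probes higher in FLT-Sham, and the groups overlapped (p = 0.114 by a two-sided exact permutation test). With replicate 8 of FLT-Sham left out the difference was 5141.75 probes (p = 0.0571 by exact permutation). The reference channel, which held the same RNA on every array, also had 2877.5 more probes above background on the FLT-Sham arrays (p = 0.171 by exact permutation).

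Over 9302 probes above background on all 8 arrays, the first principal component took up 63.6% of the variance. Its lowest scores were those of G-Sham replicate 1 (-0.72) and FLT-Sham replicate 8 (-0.66), and its highest those of FLT-Sham replicates 4 (0.72) and 6 (0.70). FLT-Sham replicate 8 correlated with the 4 G-Sham arrays at r = 0.922 to 0.961 across these probes and with the other FLT-Sham arrays at 0.820 to 0.919. It lay nearer to the ground mice than to its own group, and whether it holds the sample its label names cannot be told from the labels. Group means follow the labels throughout. The arrays lay on 3 slides. Slide 1 held G-Sham replicate 3 and FLT-Sham replicate 4, slide 2 held G-Sham replicates 1 and 5 with FLT-Sham replicates 6, 8 and 9, and slide 3 held G-Sham replicate 4.

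**Figure D1:**
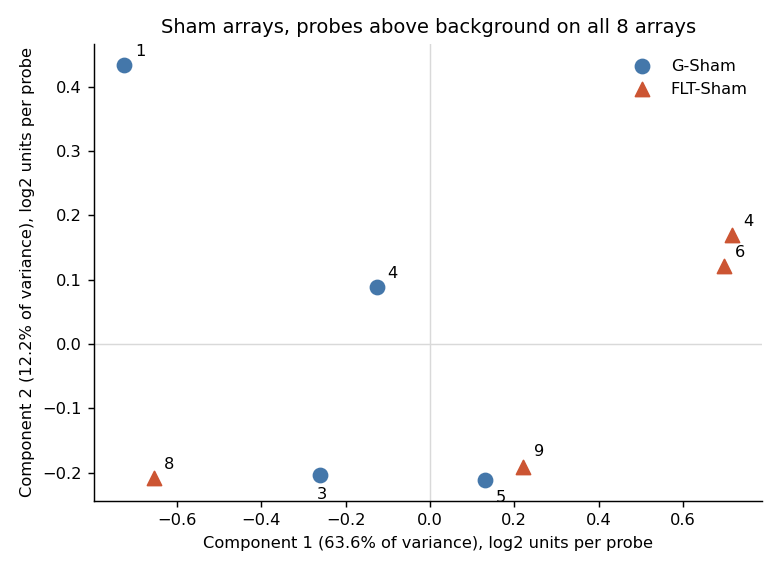
Scores of the 8 sham arrays on the first and second principal components of the log2 ratios of 9302 probes above background on every array, in log2 units per probe. Circles are G-Sham, triangles are FLT-Sham and the numbers are replicates. FLT-Sham replicate 8 lies beside G-Sham replicate 1 at the left, away from FLT-Sham replicates 4 and 6 at the right.

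Of 16252 genes tested, 390 passed the cut-off in FLT-Sham against G-Sham, 349 as higher and 41 as lower in FLT-Sham. That is 89.5% higher, and the split depended on the scaling, with 72.8% higher after centring each array on its median, 64.8% after a further loess and 28.1% of 32 genes after normexp background correction and loess. Counted at the brightest probe of each gene, 1.72% of genes passed as higher and 0.197% as lower. With limma 0 of 19739 probes had an adjusted p of 0.05 or less (lowest 0.177), and 1890 had an unadjusted p of 0.05 or less. Group membership accounted for 22.6% of the sum of squares over all probes (p = 0.171 by exact permutation of the 8 arrays).

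Leaving out 1 array moved these counts by up to several fold. Without FLT-Sham replicate 8, 1978 genes passed the cut-off, 594 probes had an adjusted p of 0.05 or less and group membership accounted for 44.4% of the sum of squares (p = 0.0571 by exact permutation). Leaving out FLT-Sham replicate 6 instead gave 94 genes, without replicate 4 it was 111, and without replicate 9 it was 142. Without G-Sham replicate 1 it was 237 and without G-Sham replicate 5 it was 602. Of the 353 probes past the cut-off as higher, FLT-Sham replicate 8 had the lowest value of its group for 236 and the highest for 53.

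Most genes that passed as higher were dim or absent on the ground arrays. Of the 353 probes, 256 were above background on 0 G-Sham arrays and 12 were above background on all 8 arrays. Among the 9547 tested probes above background on all 4 G-Sham arrays, the median difference was -0.02, with 12 probes past the cut-off as higher and 20 as lower. Among the 1705 probes above background on 0 G-Sham arrays it was 1.67, with 256 past as higher and 0 as lower, and such a probe was tested only because its signal was above background in FLT-Sham. Genes measured on all 8 arrays are free of that selection. Of 8133 such genes, 0.123% passed the cut-off as higher (10 genes) and 0.135% as lower (11 genes).

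**Figure D2:**
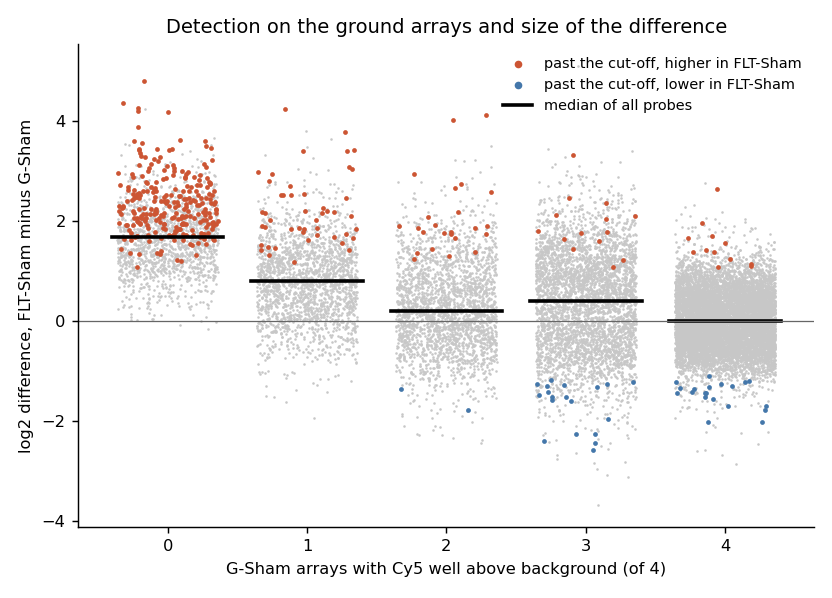
Log2 difference (FLT-Sham minus G-Sham) of each tested probe, by the number of G-Sham arrays on which its Cy5 signal was well above background. Each point is a probe, orange points passed the cut-off as higher and blue points as lower, and black bars are the medians of all probes in a column, which go from 1.67 at 0 arrays to -0.02 at 4 arrays.

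Of the genes named as past the cut-off and measured on every array, Cpt1b had the largest difference. Cpt1b, the muscle enzyme that brings long-chain fatty acids into mitochondria, had log2 ratios of 3.35, 3.79, 3.90 and 4.85 in G-Sham and 6.15, 6.27, 5.89 and 5.38 in FLT-Sham. All 4 flight mice, replicate 8 included, were above all 4 ground mice, and the difference was 1.95 (SE 0.40, limma adjusted p = 0.348), a 3.86-fold difference. It was 2.36 within slide 1, 1.75 within slide 2 and 1.27 after loess. The brighter of the 2 Cpt1b probes differed by 1.16 with overlapping groups and did not pass.

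Mgll, the lipase that completes triglyceride breakdown, had log2 ratios of 5.02, 5.82, 4.29 and 5.48 in G-Sham and 6.64, 7.09, 6.06 and 7.02 in FLT-Sham. The groups did not overlap, with replicate 8 the lowest of the flight mice, and the difference was 1.55 (SE 0.42, limma adjusted p = 0.450). Its brighter probe also had a higher mean in FLT-Sham but did not pass.

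Matn4, a matrilin that links filaments of the extracellular matrix, had log2 ratios of 1.68, 0.75, 1.40 and 1.74 in G-Sham and 3.04, 2.88, 2.67 and 2.47 in FLT-Sham, a difference of 1.37 (SE 0.34, limma adjusted p = 0.410). The flight values spanned less than the gap to the ground mice. Actr5, a subunit of the INO80 chromatin remodeller, was just as tight, at -1.22, -0.99, -0.91 and -0.79 in G-Sham against 0.28, 0.20, -0.12 and 0.08 in FLT-Sham, a difference of 1.09 (SE 0.28, limma adjusted p = 0.417).

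Pde2a, a phosphodiesterase that breaks down cyclic nucleotides, lay between 1.41 and 2.07 in G-Sham and between 2.45 and 3.36 in FLT-Sham. Lrba, an anchor protein that keeps the immune receptor CTLA4 from degradation, lay between -1.61 and -0.76 in G-Sham and between -0.12 and 0.88 in FLT-Sham. Gmfg, a regulator of branched actin in blood cells, lay between -0.42 and 1.27 in G-Sham and between 1.36 and 2.71 in FLT-Sham, so that the groups were barely apart. The transmembrane protein gene Tmem131l and the transcriptional coregulator Tcf20 also passed as higher, with differences of 1.41 and 1.13. A second Tcf20 probe went slightly the other way (not past the cut-off).

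Genes lower in FLT-Sham included a lymphocyte gene and a mitotic gene. Gzmk, granzyme K of cytotoxic lymphocytes, had log2 ratios of 3.20, 3.45, 2.72 and 2.13 in G-Sham and 1.04, 1.39, 1.56 and 1.78 in FLT-Sham. Every flight mouse was below every ground mouse, and the difference was -1.43 (SE 0.38, limma adjusted p = 0.429), -2.41 within slide 1 and -1.09 within slide 2. Ube2c, the ubiquitin-conjugating enzyme of the anaphase-promoting complex, had -0.42, 0.13, -0.25 and -0.08 in G-Sham and -1.58, -1.42, -1.09 and -0.92 in FLT-Sham, a difference of -1.10 (SE 0.30, limma adjusted p = 0.450). Its second probe also had a lower mean and did not pass.

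The hair keratin gene Krt31 lay between 2.42 and 3.18 in G-Sham and between 0.87 and 2.14 in FLT-Sham, a difference of -1.36. Hap1, a partner of huntingtin in vesicle transport, lay between 3.96 and 4.46 in G-Sham and between 2.27 and 3.52 in FLT-Sham, a difference of -1.30. Mapk1ip1l differed by -1.32, and its other 2 probes went 1 up and 1 down without passing. In these lower genes FLT-Sham replicates 4 and 6 were the farthest from the ground mice for Krt31, Hap1, Mapk1ip1l and Ube2c.

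**Figure D3:**
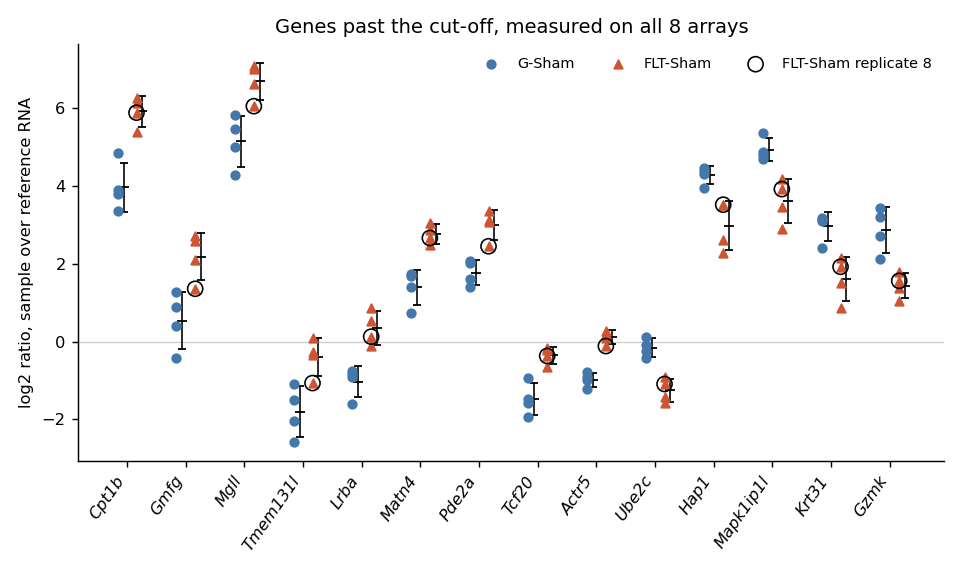
Log2 ratio of sample over reference RNA on each array for the named genes past the cut-off that were above background on all 8 arrays. Blue circles are G-Sham, orange triangles are FLT-Sham, the circled triangle is FLT-Sham replicate 8, and the bars are mean ± SD of 4 arrays. The groups do not overlap for any gene shown, which was a condition of the rule that named them, with Cpt1b at the left 1.95 higher and Gzmk at the right 1.43 lower on the log2 scale.

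Where a gene was below background on all 4 arrays of a group only a bound on its fold can be given, from the normalized Cy5 signal set against the dimmest probe that each array still called above background. All samples were in Cy5 with no dye swap, so a dye effect on single probes could not be checked. Each bound holds only for the Cy5 scaling it came from. Under other scalings and fits of all 8 arrays the log2 difference was as small as 0.11 for Smad6, 0.03 for Xiap and -0.15 for Skint10. Samd4, a repressor of translation that binds mRNA, was at least 5.39-fold higher in FLT-Sham, with log2 ratios of -1.89, -0.50, -0.94 and 0.71 in G-Sham and 3.24, 4.08, 3.33 and 2.20 in FLT-Sham. Replicate 8 lay within its group (limma adjusted p = 0.238). Ube4a, which extends ubiquitin chains, was at least 4.06-fold higher, with replicate 8 the lowest flight mouse.

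The mitochondrial DNA polymerase Polg, at least 5.43-fold higher, and the iron-binding protein gene Pir, at least 5.04-fold higher, followed another pattern. Replicate 8 was at 3.15 for Polg and at 2.59 for Pir, while the other flight mice lay between -1.92 and -0.89 and between -2.27 and -1.45. Without replicate 8 the log2 differences were 2.33 and 2.48, and both bounds include replicate 8. Under other scalings and fits of all 8 arrays the differences were as small as 0.14 for Polg and 0.10 for Pir. In the other direction the zinc finger gene Zfp112 was at least 2.34-fold lower in FLT-Sham and Skint10, of a family that selects skin T cells, at least 2.17-fold. The log2 ratio of the Polycomb gene Pcgf2 differed by -1.53, a fold of 2.88, and no bound is given because the Cy5 value came out above that fold.

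Bone genes differed little as a group. Of 25 osteoblast and matrix genes 19 were tested, and 1 passed, as higher. That gene was Ibsp, bone sialoprotein, a matrix protein that seeds mineral. Its log2 ratios were 2.43, 0.86, 1.99 and 2.40 in G-Sham, where 3 arrays were above background, and 4.96, 4.08, 4.48 and 3.57 in FLT-Sham, where all 4 were. The groups were well apart and replicate 8 was the second highest flight mouse. The difference was 2.35 (SE 0.47, limma adjusted p = 0.346), 4.10 within slide 1, 1.63 within slide 2 and 1.59 after loess, and its second probe had a higher mean too. Col1a1 had a mean of 1.70 in both groups (SD 0.61 in G-Sham and 0.57 in FLT-Sham), and the difference of Sparc was 0.37 and of Col1a2 0.22, neither past the cut-off.

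The 10 osteoblast genes measured on all 8 arrays had a median difference of 0.06, beside 0.11 over all 5039 named genes measured on all 8 arrays, of which 56.8% were positive. Other scalings and fits moved the all-gene median to between -0.18 and 0.11, so lists are also given relative to it. Relative to all genes the osteoblast median lay between -0.16 and 0.19 over 8 settings of scaling, slide block and array left out, on both sides of 0.

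Of 15 osteocyte genes 7 were tested and 0 passed. The 3 measured on all 8 arrays had a median of -0.25 with 1 positive. Fgf23, the bone hormone that lowers phosphate, differed by -0.92 with overlapping groups, and Pdpn by -0.25. Of 20 osteoclast genes 13 were tested and 0 passed. The 7 measured on all 8 arrays had a median of -0.20 with 2 positive, and Tcirg1, a proton pump subunit of osteoclasts, differed by -0.55. The tartrate-resistant phosphatase Acp5 was at 0.38, 1.37, 3.13 and 3.84 in G-Sham and 5.33, 4.48, 2.77 and 3.67 in FLT-Sham, and the groups overlapped. Cathepsin K, Ctsk, had a mean of 0.90 (SD 2.88) in G-Sham and 3.64 (SD 1.71) in FLT-Sham, a spread between mice too wide for its difference of 2.74 to pass (SE 1.42).

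In the BMP and TGF-beta pathway 36 of 54 genes were tested and 2 passed, both as higher. The ligand Bmp7 had log2 ratios of -2.94, -2.88, -3.08 and -3.68 in G-Sham and -1.27, -1.37, -2.10 and -1.81 in FLT-Sham, without overlap. Being below background on all 4 ground arrays it was at least 1.49-fold higher, and the sign turned with normexp background correction (-0.047). The inhibitory mediator Smad6 had -3.72, -4.01, -2.96 and -3.39 in G-Sham and -0.13, -0.55, -1.61 and -1.09 in FLT-Sham, at least 2.66-fold higher (limma adjusted p = 0.238). Ltbp4 and Bmp4, the brightest members, differed by -0.08 and -0.64. The 21 members measured on all 8 arrays had a median of -0.08, and -0.19 to -0.03 relative to all genes over the 8 settings.

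In the Wnt pathway 30 of 54 genes were tested and 2 passed as higher. The secreted inhibitor Wif1 had log2 ratios of -0.02, 0.00, -0.37 and 3.64 in G-Sham and 4.57, 4.57, 2.39 and 4.02 in FLT-Sham. G-Sham replicate 5 lay among the flight mice and so the groups overlapped, and with the exact 0 of G-Sham replicate 3 set to missing the difference did not pass. Wls, which carries Wnt ligands to the cell surface, had -5.86, -5.45, -4.99 and -4.96 in G-Sham and -2.93, -2.82, -4.92 and -3.55 in FLT-Sham, at least 2.05-fold higher, and the sign turned with normexp background correction (-0.28). The intracellular members Gsk3b and Dvl1 differed by 0.43 and 0.90 without passing. The 13 members measured on all 8 arrays had a median of -0.28.

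Of 20 adipocyte genes 16 were tested and 3 passed, all as higher in FLT-Sham. They encode proteins that coat lipid droplets, and each was above background on 0 or 1 G-Sham arrays, so that it was tested only through the flight mice. Cidec, which fuses droplets into 1 large store, had ratios of exactly 0 on 3 G-Sham arrays and 4.38 on replicate 5, against 5.22, 5.81, 3.80 and 6.46 in FLT-Sham. A ratio of exactly 0 occurred on 258 of the probes tested and on 21 of those past the cut-off as higher, and the fit kept it as 0. With such ratios set to missing, the log2 difference of Cidec was 0.95, short of a fold of 2. It then rested on the 1 ground value left, which lay above replicate 8. Plin1, perilipin 1, had 0.98, 1.20, 2.31 and 1.72 in G-Sham and 5.28, 4.33, 2.85 and 3.75 in FLT-Sham, without overlap and at least 2.23-fold higher (limma adjusted p = 0.387). Cidea had -0.99, 0.84, 2.30 and 0.94 in G-Sham and 5.02, 4.68, 1.96 and 3.89 in FLT-Sham, where replicate 8 overlapped the ground mice, and was at least 2.82-fold higher.

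Adipoq, the fat cell hormone adiponectin, differed by 2.71 (SE 1.10) with overlapping groups and did not pass. The 7 adipocyte genes measured on all 8 arrays, which do not include those named above, all had positive differences with a median of 0.999, and 0 passed. Their mean log2 ratio was 1.14, 2.48, 2.78 and 3.46 in G-Sham and 3.89, 4.11, 2.08 and 3.80 in FLT-Sham. Replicate 8 lay among the ground mice, and without it the median was 1.71. Relative to all genes the median was 0.55 to 1.61 over the 8 settings, positive in each.

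The promoters of the genes of these groups that passed the cut-off and had a window in RefSeq (build GRCm38.p6) are shown because the genes passed in the same direction. Each window holds 250 bases before to 50 bases after a transcript start and is printed 5′ to 3′ on the gene's strand. The windows shown are those of Cidec (chr6:113435711-113436010), Plin1 (chr7:79732727-79733026), Smad6 (chr9:64022010-64022309), Wif1 (chr10:121033754-121034053) and Wls (chr3:159839400-159839699). Cidec, Plin1 and Smad6 lie on the minus strand and Wif1 and Wls on the plus strand. Capitals mark matches on either strand to 6 motifs. These are the E-box, with the letters CACGTG, the cAMP response element, with the letters TGACGTCA, and the D-box, with the letters TTATGTAA. The others are the GC box, which reads GGGCGG, the CCAAT box, whose name gives its letters, and the TATA box, which reads TATAAA.
Cidec: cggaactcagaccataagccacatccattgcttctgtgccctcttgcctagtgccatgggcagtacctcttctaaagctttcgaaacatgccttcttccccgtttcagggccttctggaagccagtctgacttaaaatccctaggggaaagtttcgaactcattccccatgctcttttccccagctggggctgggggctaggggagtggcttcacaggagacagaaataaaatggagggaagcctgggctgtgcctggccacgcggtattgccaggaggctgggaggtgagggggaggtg
Plin1: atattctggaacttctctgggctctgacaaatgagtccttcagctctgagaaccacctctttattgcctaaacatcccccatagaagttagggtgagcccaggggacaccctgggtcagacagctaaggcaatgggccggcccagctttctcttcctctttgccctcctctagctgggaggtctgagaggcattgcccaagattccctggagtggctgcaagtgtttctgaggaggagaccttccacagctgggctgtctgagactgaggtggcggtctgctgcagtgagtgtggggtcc
Smad6: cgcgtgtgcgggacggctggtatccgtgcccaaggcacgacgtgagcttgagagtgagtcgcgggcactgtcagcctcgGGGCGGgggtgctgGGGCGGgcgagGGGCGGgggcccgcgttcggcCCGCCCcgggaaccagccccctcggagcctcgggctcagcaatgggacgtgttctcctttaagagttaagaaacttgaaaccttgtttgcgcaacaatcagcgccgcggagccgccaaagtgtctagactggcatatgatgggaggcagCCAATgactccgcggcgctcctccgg
Wif1: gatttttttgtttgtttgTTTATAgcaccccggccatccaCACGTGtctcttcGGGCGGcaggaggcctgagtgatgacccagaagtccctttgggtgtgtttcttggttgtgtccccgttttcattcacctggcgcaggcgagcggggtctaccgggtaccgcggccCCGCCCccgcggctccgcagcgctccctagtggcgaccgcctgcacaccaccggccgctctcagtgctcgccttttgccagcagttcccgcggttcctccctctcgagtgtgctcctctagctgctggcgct
Wls: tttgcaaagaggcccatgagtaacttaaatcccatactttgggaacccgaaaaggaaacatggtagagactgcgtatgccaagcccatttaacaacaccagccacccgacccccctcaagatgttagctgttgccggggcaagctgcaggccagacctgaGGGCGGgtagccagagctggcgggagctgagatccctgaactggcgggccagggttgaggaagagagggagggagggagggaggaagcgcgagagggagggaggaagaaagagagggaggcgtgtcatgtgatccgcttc

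Neither lipid droplet gene had a match to any of these letters in its window. Smad6 held 4 GC boxes and a CCAAT box, Wif1 held 2 GC boxes, an E-box and a TATA box on the opposite strand, and Wls held a single GC box. Over 32851 windows of the same length in the table, 35.7% held a GC box, 37.4% a CCAAT box, 13.6% a TATA box, 7.15% an E-box, 1.79% the cAMP response element and 0.938% the D-box. The matches overlap no other motif of the set and are a description of the letters only.

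Genes that burn fat and make ATP did not pass one by one. Of 34 fatty acid oxidation genes 29 were tested and 0 passed at their brightest probe. Of the 20 measured on all 8 arrays, 16 had positive differences, with a median of 0.64 and 0.43 to 0.83 relative to all genes over the 8 settings. Etfb, which passes electrons from fat oxidation to the respiratory chain, was at 0.50, 1.14, 1.18 and 1.52 in G-Sham and 2.33, 2.31, 0.84 and 1.99 in FLT-Sham. Replicate 8 was inside the ground range, and the other 3 flight mice were above it. Acadvl, which starts the oxidation of very long chains, showed the same order, with a difference of 1.05 (SE 0.70) that did not pass.

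Of 86 genes of the electron transport chain and ATP synthase 84 were tested and 0 passed. Of the 77 measured on all 8 arrays, 70 had positive differences with a median of 0.67. The mean log2 ratio of the 77 genes was -0.48, 0.56, 0.67 and 0.96 in G-Sham and 1.52, 1.75, -0.14 and 1.28 in FLT-Sham. G-Sham replicate 1 and FLT-Sham replicate 8 were the lowest of their groups, and the groups overlapped through replicate 8 alone. Without it the median was 1.08, without G-Sham replicate 1 it was 0.45, and relative to all genes it was 0.42 to 0.98 over the 8 settings. Cox4i1, a subunit of cytochrome c oxidase, differed by 0.60 and Atp5g2, of the ATP synthase ring, by -0.10.

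Muscle genes moved across the same arrays. Of 22 fast muscle genes all were tested and 0 passed, and the 17 measured on all 8 arrays had a median of 0.42. Relative to all genes the median of these 17 genes lay between -0.25, without G-Sham replicate 1, and 0.93 over the 8 settings. Their mean log2 ratio was 6.14, 8.41, 8.40 and 8.88 in G-Sham and 8.78, 8.91, 7.07 and 8.77 in FLT-Sham, lowest on G-Sham replicate 1 and FLT-Sham replicate 8. The summed level of muscle genes thus differed between arrays of both groups, and its part in the fat and mitochondrial differences was not tested. Of 18 slow muscle genes 17 were tested and 0 passed, and the 8 measured on all 8 arrays had a median of 0.44. Among the members Eno3, the muscle enolase, differed by 0.71, Tnnt1 by 0.91, Tpm1 by -0.07 and Tpm3 by -0.36.

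**Figure D4:**
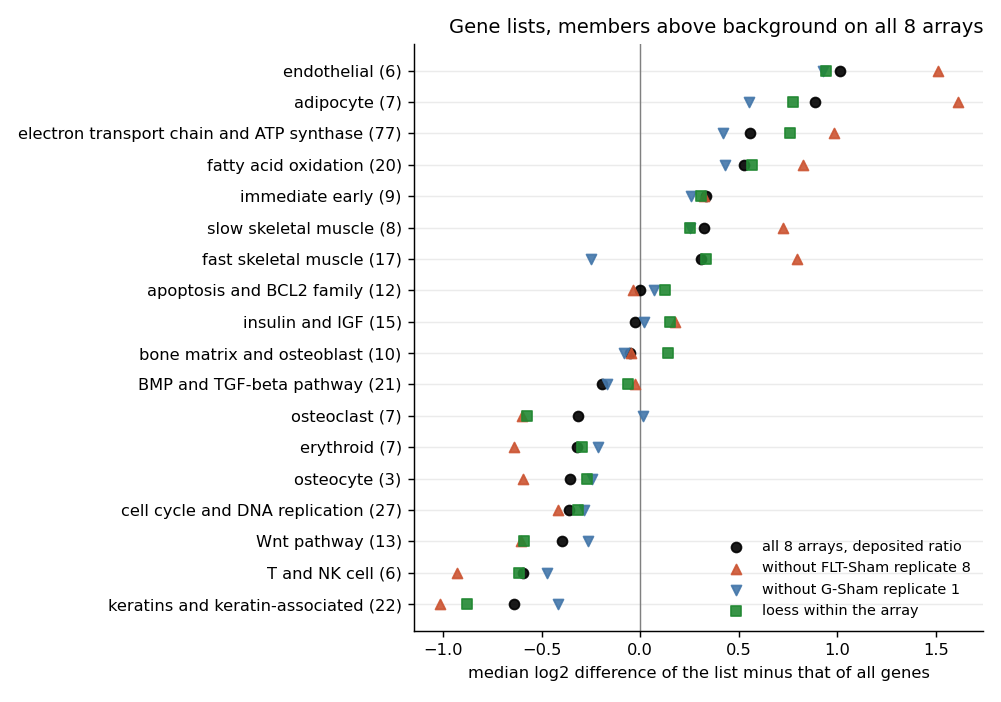
Median log2 difference (FLT-Sham minus G-Sham) of each gene list minus that of all genes, over members above background on all 8 arrays, with the number of members in brackets. Black circles are all 8 arrays with the deposited ratio, orange triangles leave out FLT-Sham replicate 8, blue triangles leave out G-Sham replicate 1 and green squares are after loess. The endothelial and adipocyte lists lie at the positive end in each, and the keratin and T and NK cell lists are negative in each.

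Endothelial genes had the largest median of the lists described. Of 20 such genes 16 were tested and 0 passed, and the 6 measured on all 8 arrays had a median of 1.13 with 5 positive. Their mean log2 ratio was 2.04, 2.70, 2.80 and 3.47 in G-Sham and 4.50, 4.59, 2.94 and 3.94 in FLT-Sham, and again only replicate 8 among the flight mice overlapped the ground mice. Relative to all genes the median was 0.93 to 1.51 over the 8 settings. Egfl7, an angiogenic factor of vessels, differed by 0.88 and Kdr, the main VEGF receptor, by -0.15. Cdh5, the cadherin of vessel junctions, was below background on all 4 ground arrays, at 0.00, 1.42, -0.15 and 3.16. It was at 7.47, 8.16, 0.00 and 5.77 in FLT-Sham, where it was above background on 3 arrays. It was tested only through the flight arrays and did not pass. The other endothelial marker, Pecam1, differed by -0.37 with overlapping groups.

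Of 24 red cell genes 17 were tested and 1 passed, Rhd, a blood group protein of the red cell membrane, at least 1.92-fold higher. Its log2 ratios were -4.13, -3.36, -4.15 and -3.37 in G-Sham and -0.39, -0.69, -3.38 and -1.17 in FLT-Sham, with replicate 8 inside the ground range. The brightest members, Hba-a2 and Hemgn, differed by -0.32 and -0.57 and did not pass, and the sign of Hba-a2 turned in Cy5 alone (1.12). The 7 members measured on all 8 arrays had a median of -0.21, which relative to all genes lay between -0.64 and 1.06 over the 8 settings, on both sides of 0.

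The T and NK cell, mitotic and keratin lists had negative medians, and so did the list of odorant receptors. The 32 olfactory and vomeronasal receptor genes measured on all 8 arrays had a median of -0.40 with 5 positive, and their mean log2 ratio was lowest on FLT-Sham replicates 4 and 6 (2.13 and 2.14). Of 24 T and NK cell genes 9 were tested and 1 passed, Gzmk, as lower. The 6 measured on all 8 arrays all had negative differences with a median of -0.48, and -0.93 to -0.36 relative to all genes over the 8 settings. Cd4 and Cd3e differed by -0.44 and -0.52 without passing. The mean log2 ratio of the 6 genes was 2.84, 2.89, 2.43 and 2.60 in G-Sham and 1.53, 1.54, 2.86 and 2.48 in FLT-Sham, so that replicates 4 and 6 were low and replicates 8 and 9 lay with the ground mice.

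Of 56 cell cycle and DNA replication genes 41 were tested and 1 passed, Ube2c, as lower. The 27 measured on all 8 arrays had a median of -0.25 with 10 positive, and -0.41 to -0.28 relative to all genes. Mcm6, of the replicative helicase, was between 0.71 and 1.06 in G-Sham and at -0.40, -0.90, 0.79 and 0.71 in FLT-Sham, low on replicates 4 and 6 only. Cdk4, a kinase of the G1 phase, differed by -0.53. Of 104 keratin genes 34 were tested and 1 passed, Krt31, as lower, and the 22 measured on all 8 arrays had a median of -0.53 with 4 positive, -1.01 to -0.23 relative to all genes. The epidermal keratin Krt10 was above background on 0 G-Sham arrays and 1 FLT-Sham array, and Krt14 on 3 G-Sham and 4 FLT-Sham arrays. The bright member Krt222 differed by -0.96 and Krt18 by -0.91, neither past the cut-off.

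**Figure D5:**
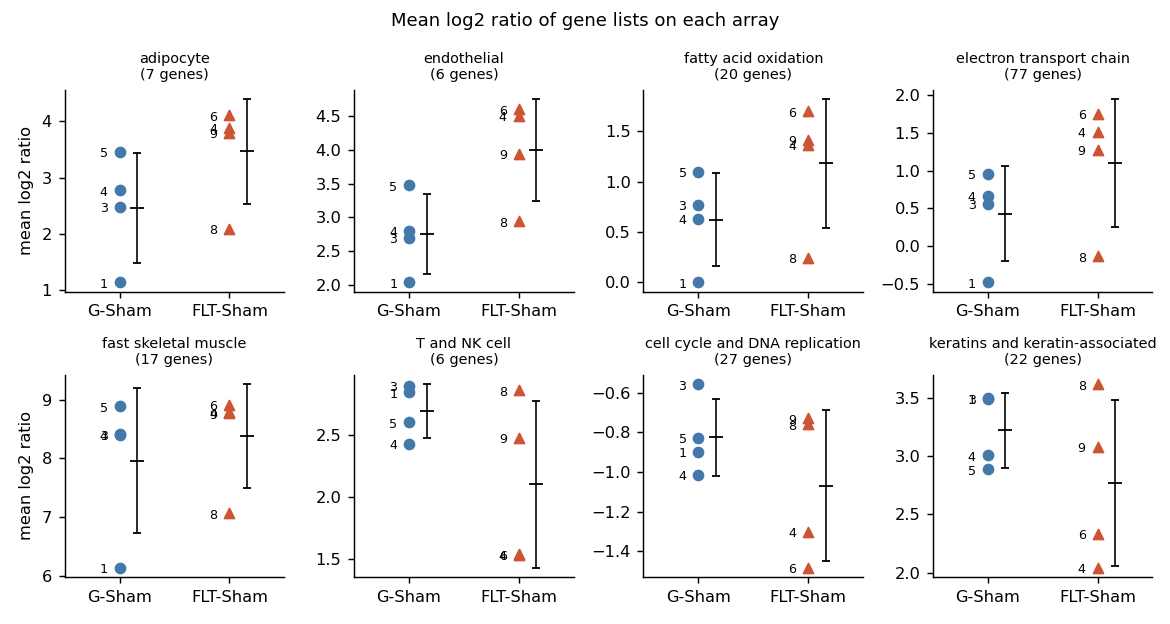
Mean log2 ratio of 8 gene lists on each array, over members above background on all 8 arrays. Blue circles are G-Sham, orange triangles are FLT-Sham, numbers are replicates and bars are mean ± SD of 4 arrays. In the adipocyte, endothelial, fatty acid oxidation, electron transport and fast muscle panels FLT-Sham replicate 8 is the lowest flight mouse, and no list separates the groups.

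Genes of survival and growth signalling passed singly. Of 42 apoptosis genes 27 were tested and 2 passed as higher, and they oppose each other in the pathway. Diablo, the mitochondrial protein that blocks inhibitors of apoptosis, had log2 ratios of -1.76, -0.83, -1.30 and -0.92 in G-Sham and 0.06, -0.01, -0.20 and -0.36 in FLT-Sham, without overlap. Xiap, a caspase inhibitor that Diablo binds, had -4.48, -3.78, -3.18 and -2.99 in G-Sham and -0.97, -0.93, -3.24 and -1.54 in FLT-Sham, at least 2.36-fold higher with replicate 8 among the ground mice. Cycs, cytochrome c, and Birc5, survivin, differed by 0.75 and 0.04, and the 12 members measured on all 8 arrays had a median of 0.11, the same as all genes.

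Of 44 insulin and IGF genes 28 were tested and 1 passed, the receptor Igf1r, at least 2.36-fold higher, at -5.20, -3.23, -3.21 and -3.16 in G-Sham and -1.85, -1.18, -2.23 and -1.96 in FLT-Sham, and the sign turned with normexp background correction (-0.12). No flight mouse overlapped the ground mice, and the lowest value was that of G-Sham replicate 1. The adaptor Gab3 and the binding protein Igfbp6 differed by 0.07 and -0.12. Of 30 immediate early genes 22 were tested and 1 passed, the AP-1 member Fosl2, at least 1.78-fold higher without overlap, and the sign turned with normexp background correction (-0.23). Nr4a1 and Jun, which respond within minutes to a stimulus, differed by 0.59 and 0.26 without passing. The 15 insulin and IGF genes and the 9 immediate early genes measured on all 8 arrays had medians of 0.09 and 0.45.

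Across the 18 lists described, 13 members passed as higher and 3 as lower of 467 tested, counting a gene once in each list that holds it, beside 1.72% and 0.197% of all genes at their brightest probe. Of the other 27 lists examined, 3 had members past the cut-off, 10 higher and 3 lower, and these were the broad lists of olfactory receptors, ion channels and zinc finger proteins. At their brightest probe 3.62% of all 16252 genes had flight arrays that were all above the ground arrays and 0.935% had flight arrays that were all below. Of the 35 genes past the cut-off that the rule for naming genes selected, 27 were higher and 8 lower. With slide as a block 9 still passed, after loess 13 did, and after normexp and loess 5 did. Another 4 changed sign after normexp and loess, and none of those 4 passed. Without FLT-Sham replicate 8, 33 of the 35 still passed. Of the 25 still tested in each case, 5 passed without FLT-Sham replicate 6, 7 without replicate 4 and 13 without replicate 9.

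The operated femora offered a second comparison of flight with ground on other arrays. Of the 353 probes past the cut-off as higher in FLT-Sham, 107 (30.3%) were higher in FLT-Surgery than in G-Surgery, against 38.0% of all 19739 probes tested. Of the 41 probes past as lower, 11 (26.8%) were higher in FLT-Surgery. Cpt1b differed by 1.95 between the sham groups and by -1.68 between the operated groups, Mgll by 1.55 and -1.31, and Ibsp by 2.35 and -0.70. The sign of these 3 genes was thus opposite in the operated femora. They were named by their sham difference, which also enters their interaction terms below. Over all probes tested the median difference between the operated groups was -0.21. Gzmk had the same sign in both, at -1.43 and -0.47, and Bmp7 also, at 1.51 and 0.99.

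The difference between both flight effects was tested with an interaction term in limma over all 15 arrays. At an adjusted p of 0.05, 0 of 21777 probes passed (lowest 0.0805), and 4245 had an unadjusted p of 0.05 or less. For Cpt1b the interaction was -3.63 (SE 0.93, limma adjusted p = 0.171), for Mgll -2.86 (SE 0.78, limma adjusted p = 0.171) and for Ibsp -3.06 (SE 0.95, limma adjusted p = 0.176). Without FLT-Sham replicate 8, 3062 probes passed, and without FLT-Surgery replicate 1, 637 did.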

How the data were processed

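Femoral RNA of 15 mice was measured on 2-colour Agilent arrays, and the 8 sham arrays were used. Per the labels and file headers the images were read with Feature Extraction 12.0 (12.0.3.1 in the file headers) against build mm9. The authors deposited, for each spot, the background-subtracted and dye-normalized intensity of both channels and their log10 ratio. Here the log10 ratio was divided by log10 of 2, outlier spots were set to missing, and spots of a probe were averaged. Probes with Cy5 well above background on at least 3 of the 8 arrays entered the fit, made in R 4.3.3 with limma 3.58.1 and no covariates. Of 55681 probes 28026 were matched to a symbol through their accession. Groups came from the labels, and 1 array is 1 mouse. The number of arrays limits the precision.

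Genes named were, among probes past the cut-off whose groups do not overlap, in each direction the 10 largest on all 8 arrays and the 5 largest at background in the lower group. Of each list described, the 2 brightest members and each member past the cut-off were added, at the brightest probe. Genes without a standard symbol were left out. Fewer genes than this met the rule in some classes. A gene chosen by the rule is not reported here. Marker genes were chosen to read presence, and the differences of some are also given. Members and lists were chosen with earlier results of these data known. Bounds used the Cy5 intensity after loess and quantile normalization. Each value was recomputed under 12 other choices of scaling, filter and fit, under 4 more chosen after seeing the data, and with each of the 8 arrays removed in turn. Simulated data with known changes were used to check the fit. Metabolite and imaging data were not used here.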

Additional observations from a re-analysis of the deposited data

Results flagged for a closer look

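In 18 of the 186 groups of 4 arrays examined, 1 array lay far from the other 3 by Dixon's ratio of the gap to the range at the 95% level. Chance alone flags about 1 group in 20, or 9.3 of 186. FLT-Sham replicate 8 was that array in 7 cases, G-Sham replicate 5 in 6, G-Sham replicate 1 in 3, and G-Sham replicate 4 and FLT-Sham replicate 6 in 1 each. Values are log2 ratios, with the range of the other 3 arrays of the group.

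FLT-Sham replicate 8 was at 2.59 for Pir, against -2.27 to -1.45 on the other arrays. Its Tpm1 ratio was 6.15, against 7.13 to 7.31. For Fosl2 it was at -3.11, against -2.10 to -1.99. Its Ckm ratio was 5.72, against 9.26 to 9.71. For Adipoq it was at 1.63, against 4.48 to 5.02. Its S100a8 ratio was 2.60, against 5.61 to 5.76. For Cd68 it was at -0.60, against -1.11 to -1.02.

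G-Sham replicate 5 was at 2.42 for Krt31, against 3.11 to 3.18 on the other arrays. Its Pcgf2 ratio was 0.79, against -0.33 to -0.15. For Wif1 it was at 3.64, against -0.37 to 0.00. Its Cidec ratio was 4.38, against 0.00 on all 3. For Tnnt1 it was at 5.73, against 2.87 to 3.13. Its Pecam1 ratio was -0.32, against 1.64 to 1.94.

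G-Sham replicate 1 was at -1.10 for Cycs, against -0.24 to -0.06 on the other arrays. Its Igf1r ratio was -5.20, against -3.23 to -3.16. For Acta1 it was at 0.62, against 6.58 to 7.16.

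G-Sham replicate 4 was at 2.61 for Col1a1, against 1.37 to 1.41 on the other arrays.

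FLT-Sham replicate 6 was at 1.64 for Gsk3b, against 1.23 to 1.25 on the other arrays.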

How the results depend on the processing

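Counts at the cut-off depended on scaling, filter and array, and their causes were not tested. The main 390 genes, 89.5% higher in FLT-Sham, became 244 (64.8%) after loess, 32 (28.1%) after normexp and loess, 225 (95.1%) with slide as a block and 670 (73.6%) with no filter on dim probes, where 1 probe had an adjusted p of 0.05 or less. With Cy5 above background on all arrays 59 genes passed (55.9%), with both channels above background 55 (56.4%). The share was 72.8% after median centring and 75.2% in Cy5 alone. Array weights, which gave FLT-Sham replicate 8 a weight of 0.193, led to 3609 genes (78.2%) and 4244 probes at an adjusted p of 0.05, and fitting all 15 arrays to 591 genes and 2 probes. Leaving out 1 array gave 94 to 1978 genes, 74.9% to 97.5% higher, and 0 to 594 probes. For the interaction with surgery, leaving out 1 array gave 0 to 3062 probes, and array weights gave 6627.

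Chosen after seeing the data were 4 settings. Probes on all 8 arrays with median centring gave 75 genes (42.7%), the same probes without FLT-Sham replicate 8 gave 1012 (43.6%), slide 2 alone gave 112 (98.2%), and ratios of exactly 0 set to missing gave 414 (89.1%). With normexp and loess the difference changed sign for Bmp7 (-0.047), Wls (-0.28), Igf1r (-0.12) and Fosl2 (-0.23). The deposited series table gave 392 genes. No paired analysis was possible because the groups share only replicate number 4, which names different mice. In Cy5 23.1% to 38.5% of probes were well above background, so most genes could not be measured in both groups.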

Other observations

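The log2 ratios of Acta1 and Myh4 did not run together across arrays. In Cy5 alone both had a higher mean in FLT-Sham, Acta1 by 1.82 and Myh4 by 0.86. Acta1, the skeletal actin, was at 0.62 on G-Sham replicate 1 and at 3.65 on FLT-Sham replicate 8, against 6.58 to 8.54 on the other 6 arrays. Myh4, the fast myosin of type IIb fibres, was instead at 11.76 and 11.69 on those arrays and at 9.49 to 11.45 on the others. The log2 ratios of the globin genes also parted, while in Cy5 alone both had a higher mean in FLT-Sham, Hbb-b1 by 2.06 and Hba-a2 by 1.12. Hbb-b1 had a mean of 3.99 in G-Sham and 7.09 in FLT-Sham, while Hba-a2 had 9.69 and 9.37, and neither passed the cut-off.

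A pair of unrelated bright probes ran almost alike, an observation made after their values were seen. The hormone gene Fgf23 was at 9.68, 8.77, 7.60 and 8.18 in G-Sham and 5.99, 6.79, 9.30 and 8.47 in FLT-Sham. The keratin-like gene Krt222 was at 9.58, 8.51, 7.32 and 7.96 in G-Sham and 5.71, 6.62, 8.93 and 8.24 in FLT-Sham. Both were highest on G-Sham replicate 1 and lowest on FLT-Sham replicates 4 and 6.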
